A study of Mus musculus with 4 samples.

Results

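Annexins are proteins that bind membranes when calcium rises. S100 proteins are small, mostly calcium-binding proteins that dock on target proteins, annexins among them. Here the mRNAs of 10 of them were compared between purified migrasomes and cytosol of mouse origin: 6 annexins (Anxa1, Anxa2, Anxa4, Anxa5, Anxa6 and Anxa7) and 4 S100 genes (S100a4, S100a6, S100a10 and S100a11). They were taken by gene symbol, and all 10 were found among the 49568 symbols of the deposited table. Migrasomes are large vesicles that grow on the retraction fibres trailing behind a migrating cell. RNA of 2 migrasome libraries and 2 cytosol libraries was sequenced from total RNA. No genotype, treatment, time, cell line or purification method is given in the sources used here, and nothing says that the libraries are from different cultures. The p-values therefore describe only how far these libraries differ among themselves, which may be technical.

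Annexins share a folded core that binds acidic phospholipids when calcium rises, and they differ in the N-terminal segment that precedes it. They take part in membrane trafficking, in linking membranes to the actin cortex and in the resealing of torn plasma membrane. S100 proteins are small EF-hand proteins that form dimers and dock on target proteins, among them the N-terminal segments of annexins. S100a10 is the exception that has lost calcium binding in its EF-hands, and it binds the N-terminal segment of annexin A2 to join a pair of annexin A2 molecules into a complex. Neither family has a signal peptide, although some members reach the cell surface or the extracellular space.

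The recovered library sizes were 5171092 to 5228713 reads in migrasome and 7529136 to 8608369 reads in cytosol. Libraries of a group differed beyond sampling noise, with a chi-square per degree of freedom of 27.9 in migrasome and 17.6 in cytosol. The source cell type is not named in the labels. Of 7 haematopoietic markers 6 were too low to be tested, and the summed level of all 7 was 13.2 to 14.1 in migrasome and 16.3 to 24.7 in cytosol. None of 4 endothelial and 4 erythroid markers reached the level needed for testing. Of 5 neural markers 3 were tested, all with positive differences, and Map2 rose (1.31, limma adjusted p = 0.037), with a summed level of 69.8 to 75.0 in migrasome and 32.9 to 34.1 in cytosol. Of 6 epithelial markers only Krt14 was tested (0.99, limma adjusted p = 0.17), and their sum was 14.1 to 15.8 in migrasome and 4.65 to 7.54 in cytosol. Of 11 fibroblast markers, a list that also holds S100a4, 8 were tested, of which 5 fell (3 collagens, Pdgfra and Pdgfrb) and 1 rose (Vim). Of 4 nuclear RNAs, 3 were tested and Rn7sk fell, while Malat1 and Neat1 did not pass (limma adjusted p = 0.084 and 0.11). The 4 together took 0.16% and 0.25% of the total in migrasome libraries 1 and 2. In cytosol libraries 1 and 2 they took 1.38% and 1.31%, most of it Rn7sk (1.19% and 1.21%). Rn7sk alone was at 0.090% and 0.19% in migrasome libraries 1 and 2. The part of these marker differences in the results was not tested. Levels are the deposited normalised read counts. Differences are log2(value + 1) of migrasome minus that of cytosol, fitted with limma and given with their standard error (SE), and a gene was called when the Benjamini-Hochberg adjusted p over all 10860 genes tested was at or below 0.05. Each library is scaled by a size factor, so levels are relative. A higher level of an mRNA and a lower level of the rest cannot be told apart, and neither can fewer contributing cells and less RNA per cell. All 10 members passed the filter on low values.

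The binding site that joins the families is encoded at the start of the Anxa2 mRNA, and its partner S100a10 has one of the shortest coding sequences among the members. The first 45 bases of the Anxa2 coding sequence, which cover the stretch that S100a10 binds, and the whole coding sequence of S100a10 with its stop codon are shown because the changes of these mRNAs are set side by side further on. Both come from the GENCODE M21 transcripts of GRCm38 (Anxa2-201 and S100a10-201), 5′ to 3′ on the coding strand, with the start codon in capitals.
Anxa2 coding start: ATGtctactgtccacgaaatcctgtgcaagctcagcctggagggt
S100a10 coding sequence: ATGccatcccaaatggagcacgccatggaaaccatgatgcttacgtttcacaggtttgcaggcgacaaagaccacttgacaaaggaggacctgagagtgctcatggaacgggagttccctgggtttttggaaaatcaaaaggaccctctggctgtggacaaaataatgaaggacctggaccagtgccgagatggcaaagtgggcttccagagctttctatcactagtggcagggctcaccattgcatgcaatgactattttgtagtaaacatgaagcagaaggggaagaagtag

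All 6 annexin mRNAs rose in migrasome and none of the 4 S100 mRNAs passed the test, although all 10 differences were positive, of which those of S100a4, S100a6 and S100a10 turned negative with quantile normalization and that of S100a11 with every library scaled to the same total. Of all genes tested, 8.68% were called higher and 17.7% lower, and the median difference was -0.0043. The annexin members had a median difference of 1.02, between 0.76 and 1.27, and the S100 members one of 0.46, between 0.15 and 0.58. The members were picked as a family with earlier results of these data known, so these medians describe the list and are no test of it. In 9 of the 10 members both migrasome libraries lay above both cytosol libraries, which was so for 33.3% of all genes tested, and for 36.3% both lay below.

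**Figure D1:**
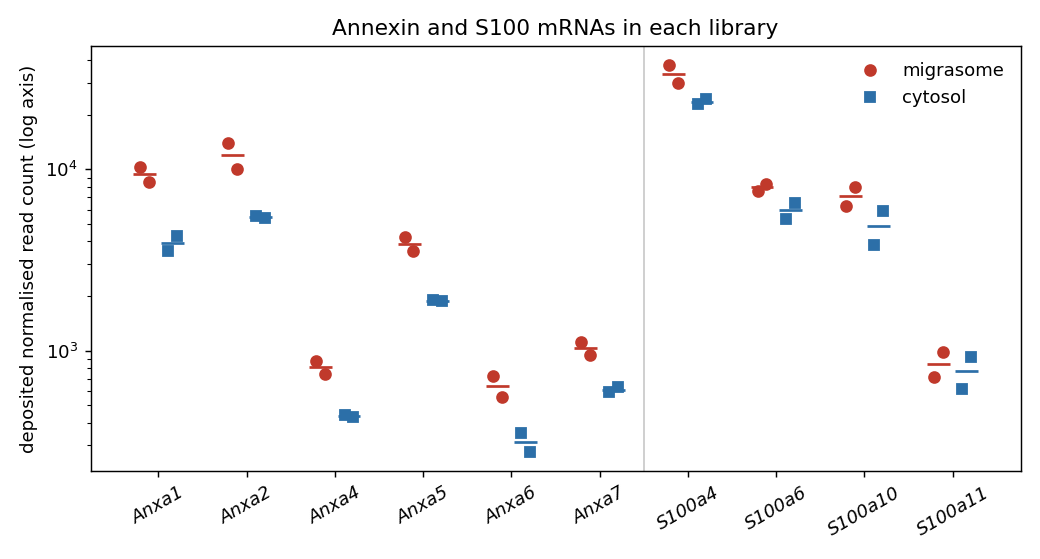
Deposited normalised read count (log axis) of each member in each library, with migrasome as circles on the left and cytosol as squares on the right of each gene and a bar at the mean of the 2 libraries. The groups are separate for all 6 annexins, lie closer for S100a4, S100a6 and S100a10, and overlap for S100a11.

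Anxa1, which encodes annexin A1, a phospholipid-binding protein known for limiting inflammation, lies on chromosome 19 from 20373428 to 20390944 on the minus strand (GRCm38, GENCODE M21, as all positions here). Its level was 10336 and 8535 in migrasome libraries 1 and 2, against 3552 and 4272 in cytosol libraries 1 and 2. Both migrasome libraries were about as far apart as both cytosol libraries, and the groups were widely separated. Its mean was 9436 ± 1274 in migrasome and 3912 ± 509 in cytosol (SD, n = 2 each), a 2.41-fold ratio of means. The log2 difference of 1.27 ± 0.23 (SE, limma adjusted p = 0.0038) was the largest of the members and stood at percentile 98.4 of the genes tested. Without cytosol replicate 1 it was 1.14 and the call was lost (limma adjusted p = 0.059).

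Anxa2 (chromosome 9, 69453620 to 69491795, plus strand) encodes annexin A2, which links membranes to actin and carries S100a10. Its level was 14047 and 10100 in migrasome libraries 1 and 2, and 5525 and 5397 in cytosol libraries 1 and 2. The cytosol libraries nearly coincided, and the migrasome libraries were farther apart (coefficient of variation 23.1% in migrasome and 1.66% in cytosol), yet the groups did not overlap. The difference was 1.13 ± 0.25 (SE, limma adjusted p = 0.0098), with a 95% interval from a 1.49-fold to a 3.19-fold increase. It was not called with one of the cytosol libraries left out (limma adjusted p = 0.071 without replicate 1 and 0.095 without replicate 2), nor with quantile normalization, where the difference was 0.45 (limma adjusted p = 0.094). Antisense to Anxa2 the annotation has Gm16144, which was listed at 0 in all libraries.

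Anxa5 (chromosome 3, 36448923 to 36475894, minus strand) encodes annexin A5, which forms ordered arrays on membranes that expose phosphatidylserine. It stood at 4226 and 3557 in migrasome libraries 1 and 2, against 1911 and 1868 in cytosol libraries 1 and 2. Each migrasome library was above each cytosol library, with a ratio of means of 2.06. The difference was 1.04 ± 0.21 (SE, limma adjusted p = 0.0062), and the call was lost without cytosol replicate 2 (difference 1.02, limma adjusted p = 0.060).

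Anxa6 (chromosome 11, 54979108 to 55033445, minus strand) encodes the largest annexin, whose core is duplicated, and its coding sequence of 2019 bases, counted without the stop codon, is the longest of the members. Its level was 724 and 551 in migrasome libraries 1 and 2, against 353 and 277 in cytosol libraries 1 and 2. In both groups the library numbered 1 was the higher one, and the groups did not overlap. The difference was 1.01 ± 0.23 (SE, limma adjusted p = 0.012). It lost its call without cytosol replicate 2 (difference 0.84, limma adjusted p = 0.10).

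Anxa4 (chromosome 6, 86736840 to 86793584, minus strand) encodes annexin A4, a membrane-binding annexin of epithelial and secretory cells. It stood at 874 and 746 in migrasome libraries 1 and 2, and at 442 and 433 in cytosol libraries 1 and 2. The groups were separate, and the difference was 0.88 ± 0.20 (SE, limma adjusted p = 0.012). With a cytosol library left out Anxa4 was not called (limma adjusted p = 0.071 without replicate 1 and 0.085 without replicate 2).

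Anxa7 (chromosome 14, 20455260 to 20480133, minus strand) encodes annexin A7, also called synexin, which aggregates secretory granules. Its level was 1121 and 949 in migrasome libraries 1 and 2, and 593 and 627 in cytosol libraries 1 and 2. It had the smallest difference of the annexins, 0.76 ± 0.20 (SE, limma adjusted p = 0.022). Leaving out cytosol replicate 1 ended the call (limma adjusted p = 0.17), as did leaving out cytosol replicate 2 (limma adjusted p = 0.12), eBayes without a trend (limma adjusted p = 0.061) and every library scaled to the same total (difference 0.49, limma adjusted p = 0.078). With a limma test against a 2-fold change, only 29 of all 10860 genes tested were higher and 73 lower. None of the members was among these few.

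**Figure D2:**
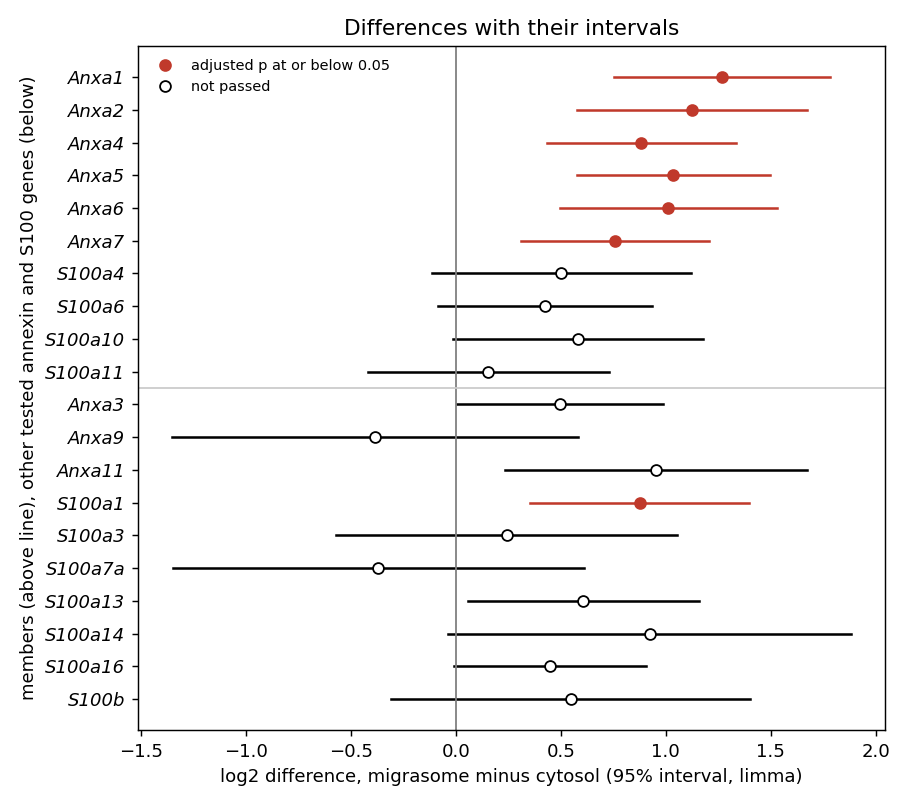
Log2 difference (migrasome minus cytosol) with its 95% limma interval for the 10 members (above the grey line) and the 10 other tested annexin and S100 genes (below it), with filled red points for genes called. The intervals of the 6 annexin members lie above 0, from 0.31 at the lowest bound, and those of the 4 S100 members include 0.

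All 4 S100 members lie in the S100 cluster of chromosome 3. S100a4 (90603771 to 90606045, plus strand) encodes a protein linked to cell motility that binds non-muscle myosin IIA. Its level was 37523 and 29912 in migrasome libraries 1 and 2, and 22885 and 24440 in cytosol libraries 1 and 2. Both migrasome libraries lay above both cytosol libraries, but the migrasome libraries differed by more than the cytosol libraries. The difference of 0.50 ± 0.28 did not pass (SE, limma adjusted p = 0.20), and its 95% interval ran from a 0.92-fold to a 2.18-fold level. Without migrasome replicate 2 the difference was 0.67 and passed (limma adjusted p = 0.036), and without migrasome replicate 1 it was 0.34 (limma adjusted p = 0.34). A model that overlaps it on the same strand, Gm42674, had at most 1.41 in any library.

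S100a6 (90612882 to 90624181, plus strand) encodes calcyclin, which binds the ubiquitin ligase adaptor Cacybp and several annexins. It stood at 7628 and 8287 in migrasome libraries 1 and 2, and at 5348 and 6562 in cytosol libraries 1 and 2. Its migrasome libraries were closer in relative terms than the migrasome libraries of any other member (coefficient of variation 5.86%), while its cytosol libraries varied by 14.4%. The difference of 0.42 ± 0.23 did not pass (SE, limma adjusted p = 0.19), with an interval from 0.94-fold to 1.91-fold. S100a5, which lies between S100a4 and S100a6, was listed at 0 in all libraries except migrasome replicate 2 (2.63, worth 2 reads).

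S100a10 (93555080 to 93564643, plus strand) had a level of 6276 and 8012 in migrasome libraries 1 and 2, and of 3828 and 5872 in cytosol libraries 1 and 2. In both groups the library numbered 1 was the lower one, by 0.35 in migrasome and 0.62 in cytosol on the log2 scale, and the lowest migrasome value was only slightly above the highest cytosol value. The difference of 0.58 ± 0.27 did not pass (SE, limma adjusted p = 0.13), and its interval, from 0.99-fold to 2.26-fold, includes no change as well as a doubling. It was 0.76 and passed without migrasome replicate 1 (limma adjusted p = 0.043), and was 0.40 without migrasome replicate 2, 0.27 without cytosol replicate 1 and 0.89 without cytosol replicate 2.

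S100a11 (93520488 to 93526287, plus strand) encodes calgizzarin, which binds the N-terminal segment of annexin A1. Its level was 714 and 983 in migrasome libraries 1 and 2, and 612 and 926 in cytosol libraries 1 and 2. The groups overlapped, and the library numbered 1 was again the lower one in both. The difference was 0.15 ± 0.26 (SE, limma adjusted p = 0.67), with an interval from 0.75-fold to 1.66-fold. The sign turned without migrasome replicate 2 (-0.076), without cytosol replicate 1 (-0.14) and with every library scaled to the same total (-0.12).

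Members that bind one another can be set side by side within each library, where scaling has no part. Per kilobase of transcript, the level of Anxa2 was 1.06 and 0.60 times that of S100a10 in migrasome libraries 1 and 2, against 0.68 and 0.44 times in cytosol libraries 1 and 2. The groups overlapped in this ratio, since migrasome replicate 2 lay below cytosol replicate 1. The log2 difference of the ratio was 0.54 (exact permutation test, two-sided, p = 0.67). With 2 libraries against 2 the exact permutation test cannot go below p = 0.33, so it cannot show whether the changes of Anxa2 and S100a10 differed. Whether the annexins as a family changed more than the S100 genes was not tested.

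Per kilobase of the annotated principal transcript, S100a4 was the most abundant member in both groups, at 67706 in migrasome and 47516 in cytosol. S100a6 (10886 in migrasome and 8146 in cytosol) and S100a10 (10430 in migrasome and 7080 in cytosol) came next, and their library values overlapped in each group. Anxa2 followed, with levels per kilobase of 8344 in migrasome and 3774 in cytosol, and its migrasome values overlapped those of S100a10. Anxa1 came after it at 5637 in migrasome and 2337 in cytosol. Next in order per kilobase were Anxa5 (2248) and S100a11 (1661) in migrasome, and in cytosol S100a11 (1505) and Anxa5 (1092). Both libraries of a group gave the same order of this pair, Anxa5 above S100a11 in migrasome and below it in cytosol. The levels per kilobase of Anxa4 (405 in migrasome, 219 in cytosol) and Anxa7 (363 in migrasome, 214 in cytosol) overlapped in each group, and Anxa6 was lowest at 256 in migrasome and 127 in cytosol. The isoforms in these samples were not measured.

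The 6 annexins took 0.42% and 0.36% of the deposited total in migrasome libraries 1 and 2, and 0.21% and 0.22% in cytosol libraries 1 and 2. The 4 S100 genes took 0.71% and 0.69% in migrasome libraries 1 and 2, and 0.56% and 0.64% in cytosol libraries 1 and 2. Most of the S100 share was S100a4, at 0.51% and 0.44% of the total in migrasome libraries 1 and 2 and 0.39% and 0.41% in cytosol libraries 1 and 2. Both shares were higher in both migrasome libraries, and the annexin share had the wider gap.

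Differences in this series moved with the level of a gene. Among the 394 tested genes with a mean level of at least 2500, where Anxa1, Anxa2, Anxa5, S100a4, S100a6 and S100a10 lie, the median difference was 0.66, and 42.4% were called higher and 5.84% lower. The difference of Anxa1, Anxa2 and Anxa5 was above this median and that of S100a4, S100a6 and S100a10 below it. Among the 2277 genes with a mean from 500 to 2500, where Anxa4, Anxa7 and S100a11 lie, the median was 0.32, with 18.2% called higher. Anxa6, at a mean below 500, lay in a range of 4501 genes with a median of -0.083, of which 5.27% were called higher. The part of the level in the members' differences was not tested. Quantile normalization gives all libraries the same distribution of values, and the trend left after it was not measured. It gave the S100 members differences of -0.077 (S100a4), -0.20 (S100a6), -0.043 (S100a10) and 0.031 (S100a11). The annexins had 0.64 (Anxa1), 0.45 (Anxa2), 0.84 (Anxa4), 0.62 (Anxa5), 1.04 (Anxa6) and 0.63 (Anxa7). All but Anxa6 were smaller than in the main analysis, and 5 annexins stayed called, without Anxa2.

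**Figure D3:**
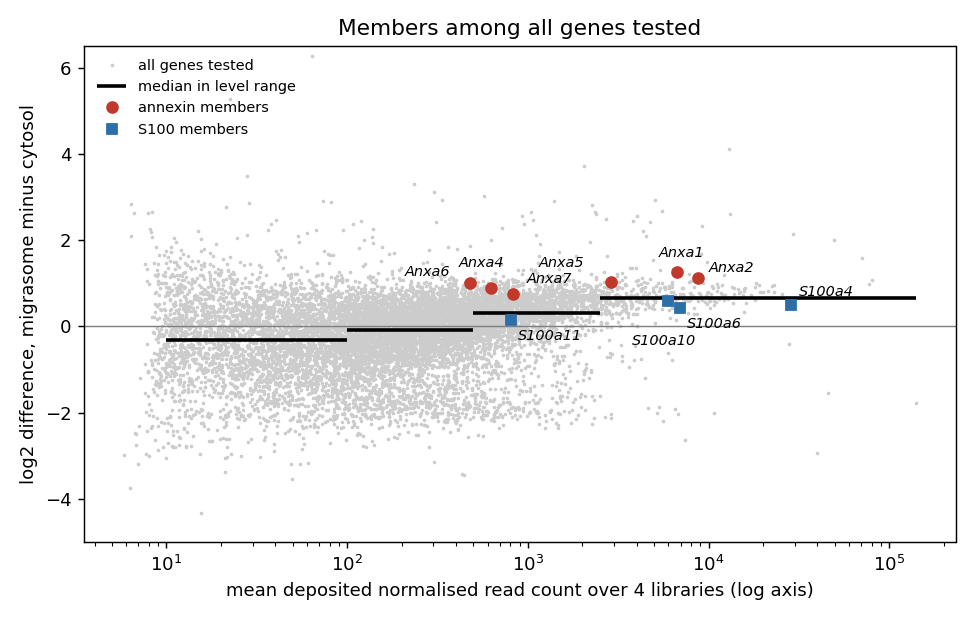
Log2 difference (migrasome minus cytosol) against the mean deposited normalised read count over the 4 libraries (log axis) for the 10860 genes tested, with the median of each level range as a black line. The 6 annexin members (circles) lie above the line of their range, and the 4 S100 members (squares) lie below it.

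The scaling sets how these differences read. Scaling every library to the same total moved the median of all genes to -0.27 and left 322 genes called higher and 2522 lower, against 943 and 1919 in the main analysis, and quantile normalization moved the median to 0.11 with 1194 higher and 1403 lower. Relative to the median of all genes, Anxa1 was higher by 1.27 in the main analysis and with the same total, and by 0.53 with quantile normalization. On the same footing S100a10 was higher by 0.59 in the main analysis, by 0.58 with the same total and lower with quantile normalization (-0.15).

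**Figure D4:**
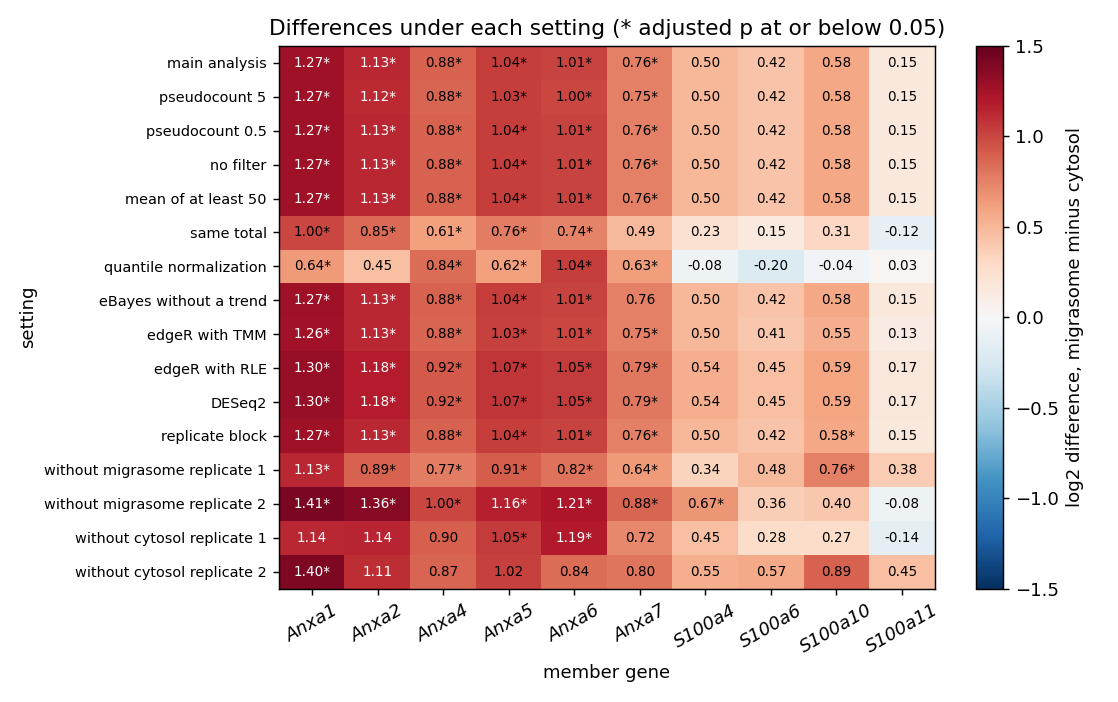
Log2 difference (migrasome minus cytosol) of each member (columns) in the main analysis and under 15 alternatives (rows), with an asterisk where the adjusted p was at or below 0.05. The 6 annexin columns are positive in every row, and the asterisks thin out in the rows without a cytosol library, where 2 members and 1 member remain called.

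Of the 18 other annexin and S100 genes listed, 10 were tested, 1 of which rose and none fell (background 8.68% higher and 17.7% lower), with a median difference of 0.52. The gene that rose was S100a1, which encodes a calcium sensor best known from muscle. It stood at 471 and 374 in migrasome libraries 1 and 2, against 259 and 201 in cytosol libraries 1 and 2, a difference of 0.88 ± 0.23 (SE, limma adjusted p = 0.023). S100a1 was no longer called without cytosol replicate 2 (difference 0.69, limma adjusted p = 0.20), and without a filter, with the same total and without a trend (limma adjusted p from 0.051 to 0.081). Anxa11, whose protein tethers RNA granules to lysosomes in neurons, stood at 73.5 and 54.0 in migrasome libraries 1 and 2 and at 35.7 and 28.8 in cytosol libraries 1 and 2. Its difference of 0.95 ± 0.32 fell just short (SE, limma adjusted p = 0.054) and passed under 6 alternatives, edgeR with either scaling among them. Anxa3 stood at 5851 and 5005 in migrasome libraries 1 and 2 and 3552 and 4152 in cytosol libraries 1 and 2, a difference of 0.49 that did not pass (limma adjusted p = 0.12).

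S100a13 (0.61), S100a14 (0.92), S100a16 (0.45), S100b (0.55) and S100a3 (0.24) had positive differences and Anxa9 (-0.39) and S100a7a (-0.37) negative ones, and none of these passed. S100a13 and S100a14 passed without migrasome replicate 2 (differences 0.91 and 1.29), as did Anxa3 (0.61) and S100a16 (0.54). Without migrasome replicate 1 the differences were 0.30 for S100a13, 0.55 for S100a14, 0.38 for Anxa3 and 0.35 for S100a16, and none passed. Anxa8, Anxa10, S100g, S100z and the myeloid genes S100a8 and S100a9 were listed at 0 in every library. Counting 0 reads allows a level of up to 3 reads, or 4.24 and 3.95 in migrasome libraries 1 and 2 and 2.33 and 2.06 in cytosol libraries 1 and 2, for counting error alone. Anxa13 and S100a5 had too few reads to be tested.

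Further lists held membrane repair genes, calpains and penta-EF-hand proteins with Pdcd6ip, and soluble EF-hand proteins. They also held binding partners of annexins and S100 proteins and other phospholipid-binding C2 genes. Together with the other annexin and S100 genes they are called partner genes below. In all, 68 genes outside the members, the other annexins and S100 genes included, gave 44 tested. Of these, 13 rose and 3 fell (background 8.68% higher and 17.7% lower), with a median difference of 0.52. The share called higher over all genes moved with level, from 3.36% at a mean below 100 to 42.4% at 2500 or more. The part of the level in the counts of these lists was not tested. Of the 13 that rose, 11 lost their call when at least 1 of the cytosol libraries was left out, and Dysf and Myof passed under all 15 alternatives.

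Dysf and Myof encode the ferlins dysferlin and myoferlin, tail-anchored membrane proteins with many C2 domains that act with annexins in membrane resealing. Dysf stood at 141 and 103 in migrasome libraries 1 and 2 and at 43.4 and 32.9 in cytosol libraries 1 and 2, a difference of 1.65 ± 0.30 (SE, limma adjusted p = 0.0040). The level of Myof was 2647 and 1949 in migrasome libraries 1 and 2 and 1071 and 1083 in cytosol libraries 1 and 2, with a difference of 1.08 ± 0.22 (SE, limma adjusted p = 0.0067). The groups did not overlap for either. In the membrane repair list 2 of 8 tested genes rose and 1 fell (background 8.68% higher and 17.7% lower). Ahnak, which encodes a giant scaffold that binds the complex of S100a10 and annexin A2, stood at 18491 and 30258 in migrasome libraries 1 and 2 and at 32057 and 30501 in cytosol libraries 1 and 2. Its difference of -0.40 did not pass (limma adjusted p = 0.35), and it rested on which migrasome library was kept. Without migrasome replicate 1 it was -0.047 (limma adjusted p = 0.91), and without migrasome replicate 2 it was -0.76 and passed (limma adjusted p = 0.019), as with quantile normalization (-0.96, limma adjusted p = 0.044). Its paralog Ahnak2 fell by 1.53 on the log2 scale (limma adjusted p = 0.012), a call lost without cytosol replicate 1 (-1.08, limma adjusted p = 0.19). The caveolar genes Cav1 (-0.081) and Cavin1, listed as Ptrf (0.80), did not pass. The difference of Ptrf was 0.33 without migrasome replicate 1 (limma adjusted p = 0.28) and 1.27 without migrasome replicate 2, where it passed (limma adjusted p = 0.00042), and it also passed with edgeR under RLE scaling and with DESeq2.

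Among calpains, penta-EF-hand proteins and the Pdcd6-binding Pdcd6ip, 3 of 7 tested genes rose and none fell (background 8.68% higher and 17.7% lower). Capn2, the catalytic subunit of a calcium-activated protease, rose by 0.95 ± 0.22 (SE, limma adjusted p = 0.013), with 2792 and 2504 in migrasome libraries 1 and 2 and 1165 and 1601 in cytosol libraries 1 and 2. Without cytosol replicate 1 the difference of Capn2 was 0.72 and did not pass (limma adjusted p = 0.19). The shared small subunit Capns1 rose by 0.70 ± 0.20 and the ESCRT adaptor Pdcd6ip, which binds the penta-EF-hand protein Pdcd6, by 0.86 ± 0.21 (limma adjusted p = 0.028 and 0.015), and neither was called once a cytosol library was left out. Capns1 was also lost without a filter, with the same total and without a trend (limma adjusted p from 0.054 to 0.11).

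Among the soluble EF-hand proteins, the centrins Cetn2 and Cetn3, which work at centrioles and in mRNA export, rose. Cetn3 stood at 1157 and 887 in migrasome libraries 1 and 2, against 573 and 607 in cytosol libraries 1 and 2, a difference of 0.78 ± 0.21 (SE, limma adjusted p = 0.025). The level of Cetn2 was 537 and 399 in migrasome libraries 1 and 2, against 251 and 291 in cytosol libraries 1 and 2, with a difference of 0.77 ± 0.23 (SE, limma adjusted p = 0.035). The groups did not overlap for either centrin. Neither was called without either cytosol library, without a filter, with the same total or without a trend, and Cetn2 not without migrasome replicate 1 either. The calmodulin gene Calm2 stood at 3480 and 3035 in migrasome libraries 1 and 2 and at 3276 and 3204 in cytosol libraries 1 and 2, overlapping groups with a difference of 0.0046. Calm3 had a difference of 0.30 that did not pass (limma adjusted p = 0.28).

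Of the targets of annexins and S100 proteins, 4 were tested and 3 rose (background 8.68% higher). Myh9, the heavy chain of non-muscle myosin IIA and a target of S100a4, rose by 1.33 ± 0.30 (SE, limma adjusted p = 0.012), with a call lost without cytosol replicate 2 and with quantile normalization (limma adjusted p = 0.072 and 0.070). Cacybp and Sugt1, targets of S100a6, rose by 0.66 and 0.75 (limma adjusted p = 0.042 and 0.036), and neither was called once a cytosol library was left out. Both were also lost without a filter, with the same total and without a trend, and Cacybp with quantile normalization as well (limma adjusted p from 0.075 to 0.19). Without migrasome replicate 1 Sugt1 was not called either (limma adjusted p = 0.089). The receptors Ager, which binds secreted S100 proteins, and Fpr1 and Fpr2, which bind annexin A1, were listed at 0 in every library.

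Other phospholipid-binding C2 genes went both ways, with 1 of 8 rising and 2 falling (background 8.68% higher and 17.7% lower). Cpne3, a soluble copine, rose by 0.79 (limma adjusted p = 0.022), a call lost without either cytosol library, with the same total and without a trend. Esyt1 and Esyt2, which encode tethers anchored in the endoplasmic reticulum, fell by 2.12 and 1.57 on the log2 scale (limma adjusted p = 0.00054 and 0.0012). Esyt1 stood at 120 and 170 in migrasome libraries 1 and 2, against 628 and 623 in cytosol libraries 1 and 2. Esyt1 and Esyt2 passed under all 15 alternatives.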

How the data were processed

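The authors' deposited table holds a signal per gene for 4 libraries, namely gene counts scaled by a size factor per library, per the submitters' processing notes and the values. The tools listed there are STAR, HTSeq, DESeq, cutadapt, FastQC and Trimmomatic, with GRCm38 as the build. The sources used here give no versions, gene annotation, strand setting or handling of multi-mapping reads, which leaves overlapping genes and near-identical copies uncertain. Dividing a library's values by what 1 read is worth gave whole numbers for 100% of values (tolerance 0.001), so whole reads could be recovered.

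Genes that reached 10 in 2 or more libraries entered 1 fit of log2(value + 1), a scale that understates changes of low genes, by limma 3.58.1 with a trended eBayes step under R 4.3.3, and adjusted p-values (Benjamini-Hochberg) were called at 0.05 or less. edgeR 4.0.16 (quasi-likelihood) and DESeq2 1.42.0 on the recovered reads were alternatives, and edgeR called 1071 genes higher and 2064 lower with TMM scaling. The members and lists were chosen with earlier results of these data known; all members and any tested gene of the lists could be named, except that 1 result is not reported here. Cavin1, Cavin2 and Cavin3 were matched to the table's older symbols through RefSeq synonyms. Lengths are those of GENCODE M21 principal transcripts. The limma procedure was tested on simulated data with the real means of 10860 genes before use. It called 39 of 100 genes simulated with a 2-fold change and 99 of 100 with a 4-fold change. The changed genes were drawn above a minimum mean, so these counts do not cover the lowest genes tested. The simulated data held no shift of the differences with level, unlike the series. Of 10660 genes simulated without a change it called 6. A gene that did not pass can therefore still differ by about 2-fold. Figures were drawn with matplotlib 3.10.9.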

Additional observations from a re-analysis of the deposited data

How the results depend on the processing

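With 2 libraries a group, each left-out library leaves 1 residual degree of freedom and a lone library assumed to vary like the others, and over these the count of genes called higher ranged from 231 to 2085 and of those called lower from 1147 to 2800, while 1 to 7 members and 3 to 24 of the partner genes were called higher. In the fits without a cytosol library Anxa5 and Anxa6 (without replicate 1) and Anxa1 (without replicate 2) were the members still called. The 6 annexin differences kept their sign under all 15 alternatives, with a lowest value of 0.45 (Anxa2 with quantile normalization).

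Genes called higher, and partner genes called higher, numbered 393 and 6 without a filter, 322 and 5 with the same total, and 483 and 6 without a trend. With a replicate block they numbered 1802 and 21, and 7 members were called, S100a10 being added (limma adjusted p = 0.041), and Ptrf passed with the block as well (limma adjusted p = 0.0030). Deviations of same-numbered libraries correlated across genes at 0.23. Over the 7172 genes with a mean of at least 100, where all members lie, the correlation was 0.34. No label ties the numbers to a shared culture or day. Signs turned for S100a4 (-0.077), S100a6 (-0.20), S100a10 (-0.043), Anxa3 (-0.098), Calm2 (-0.48) and Calm3 (-0.12) with quantile normalization, and for S100a11 (-0.12), S100a3 (-0.020) and Calm2 (-0.27) with the same total. Calm2 was -0.0037 with edgeR under TMM scaling. With 1 library left out S100a11 ranged from -0.14 to 0.45, S100a7a from -0.86 to 0.12, Calm2 from -0.094 to 0.10 and Cav1 from -0.26 to 0.096. None of these passed in the main analysis. The cause of these changes was not tested.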

Other observations

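Transcript length moved with the differences over all genes. Of the 10860 genes tested, 10024 had a principal or longest protein-coding transcript in the annotation. The median difference was 0.36 for the 323 genes with transcripts under 800 bases, the range of all 4 S100 members (498 to 731 bases), and 9.91% of them were called higher. The S100 members' median of 0.46 lies close to it. For the 3615 genes from 1600 to 3200 bases, where Anxa1, Anxa4, Anxa5, Anxa6 and Anxa7 lie (1674 to 2851 bases), the median was -0.024 and 9.10% were called higher, and for the 1418 genes from 800 to 1600 bases, where Anxa2 lies (1447 bases), it was 0.24 with 9.03%. Genes over 3200 bases had a median of -0.14. The part of length in the members' differences was not tested.

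Anxa1 and Anxa3 had the same number of reads, 4579, in cytosol replicate 1 and different numbers in the other libraries. The coding sequences of the annexin members span 12 coding exons, except for Anxa6 with 25, and those of the S100 members 2 each.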
